A study of Rattus norvegicus with 24 samples.

Results

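The neuropeptide and granin precursors examined here are the 10 genes Pdyn, Crh, Adcyap1, Cartpt, Nts, Trh, Pnoc, Cort, Scg2 and Vgf, chosen by name. They were read in the frontal cortex RNA-Seq tables of 24 adult male Sprague-Dawley rats, 24 h after the animals inhaled a tungsten aerosol. By the labels, the 8 rats of Control breathed 0 mg/m3, the 8 rats of Low 5 mg/m3 and the 8 rats of High 80 mg/m3. The labels give no genotype or further treatment, and each library came from 1 rat, named below by its library number (49 to 56 in Control, 57 to 64 in Low, 65 to 72 in High). The labels give the tissue as frontal cortex, although their extraction text speaks of cell lines, whereas the study's methods describe tissue biopsies of rats. In the tables, 9 of the 10 genes were found by name among 32883 reference genes, and all 9 were among the 15644 genes tested. Cort, the precursor of cortistatin, was not found by name and is not analysed here.

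A neuropeptide is made as a longer precursor protein that enters the secretory pathway, is cut by prohormone convertases in dense-core vesicles and is released to act on G protein-coupled receptors. Granins such as secretogranin II and Vgf are cargo of the same vesicles and are themselves cut into peptides. In the cortex most precursor genes are used by small classes of neurons, while neighbouring regions such as striatum, hypothalamus and olfactory bulb use several of them heavily. Transcription of several precursor genes is known to respond to neuronal activity and cAMP through the factor CREB, which binds the cAMP response element (CRE).

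The stretch of 250 bases before the transcription start is shown for 4 members, because 3 of them hold the full CRE and Nts holds the related AP-1 letters. The sequences are those of RefSeq on build GRCr8, where 8 of the 10 members had an entry. Crh and Pnoc had none in that table. They are printed 5′ to 3′ on the strand of the gene, which is the minus strand in all 4, and capitals mark every match to the full CRE (TGACGTCA), the CRE core (TGACG, either strand) or AP-1 (TGANTCA).
Cartpt, chr2:32991236-32991485, minus strand: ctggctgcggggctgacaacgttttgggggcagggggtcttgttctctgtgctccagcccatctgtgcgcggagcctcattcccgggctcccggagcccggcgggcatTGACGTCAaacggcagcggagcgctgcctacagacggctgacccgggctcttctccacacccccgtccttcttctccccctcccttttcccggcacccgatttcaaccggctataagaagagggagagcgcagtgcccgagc
Scg2, chr9:88256867-88257116, minus strand: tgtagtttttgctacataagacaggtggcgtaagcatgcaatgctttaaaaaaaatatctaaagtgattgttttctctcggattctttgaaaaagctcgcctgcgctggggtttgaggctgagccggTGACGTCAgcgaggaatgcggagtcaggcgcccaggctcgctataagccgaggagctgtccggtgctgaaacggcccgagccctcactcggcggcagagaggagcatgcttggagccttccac
Vgf, chr12:25277021-25277270, minus strand: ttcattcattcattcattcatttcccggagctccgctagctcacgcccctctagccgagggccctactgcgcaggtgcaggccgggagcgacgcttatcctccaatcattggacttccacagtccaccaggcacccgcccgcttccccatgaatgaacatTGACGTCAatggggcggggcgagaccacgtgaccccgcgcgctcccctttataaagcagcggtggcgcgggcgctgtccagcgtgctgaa
Nts, chr7:39460889-39461138, minus strand: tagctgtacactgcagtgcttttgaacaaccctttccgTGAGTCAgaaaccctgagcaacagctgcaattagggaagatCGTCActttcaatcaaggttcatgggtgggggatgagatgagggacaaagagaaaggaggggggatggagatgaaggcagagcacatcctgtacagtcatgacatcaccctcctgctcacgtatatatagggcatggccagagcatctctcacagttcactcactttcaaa
The full CRE began 142 bases before the start in Cartpt, 123 bases before it in Scg2 and 90 bases before it in Vgf. Of 33469 promoters of the same window, 531 (1.59%) held these letters. The core lies inside each full CRE on both strands, and occurred alone in Nts (171 bases before the start), Trh (74 bases) and Cort (105 bases). It was present in 18.2% of promoters. AP-1 letters stood 212 bases before the start of Nts and were present in 6.34% of promoters. Pdyn and Adcyap1 held none of these letters in the window, which was placed by the annotated start alone. Letters outside it were not searched. A match describes letters only, and binding was not measured.

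Levels are given as scaled coverage, that is, the deposited mean read depth per base of a gene divided by its sum over the reference genes of the library and multiplied by 1000000. This quantity is per base and can be set side by side between genes. The tables hold no read counts, and the counting error of single values is therefore unknown. Before scaling, coverage summed over reference genes (in units of 1000000) was 1.67 to 2.82 in Control rats, 1.64 to 3.07 in Low rats and 1.77 to 2.67 in High rats. The tissue label was checked against marker genes. Summed cortical excitatory neuron markers (9 of 10 listed were found) lay between 768 and 1281 in 22 rats, and were lower in High rats 66 (734) and 67 (469). Markers of neighbouring regions were uneven between rats and are given beside the members that moved with them. In bulk tissue, fewer cells of a type and less RNA per cell cannot be told apart.

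**Figure D1:**
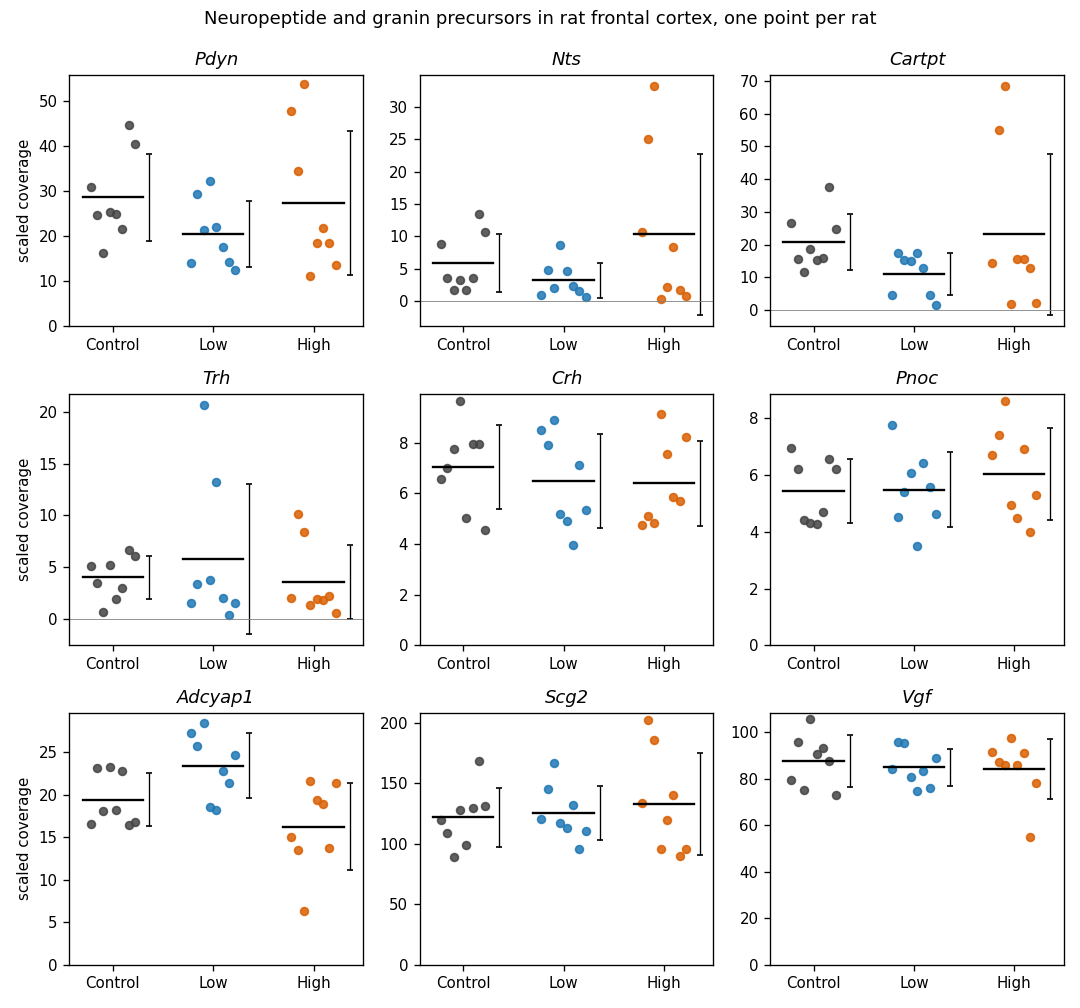
Scaled coverage (linear axis) of the 9 members found, with 1 point per rat in library order, the group mean as a line and ± 1 SD as a bar (n = 8 per group). The groups overlap in every panel, Nts, Cartpt and Trh spread most between rats, and Adcyap1 is lowest in 1 High rat (6.36).

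The granins were the most abundant members. In Control, the mean scaled coverage was 122 ± 24.3 (SD, n = 8) for Scg2, 87.5 ± 11.2 for Vgf, 28.6 ± 9.59 for Pdyn, 20.7 ± 8.50 for Cartpt and 19.4 ± 3.10 for Adcyap1. Crh followed at 7.05 ± 1.66, Nts at 5.86 ± 4.47, Pnoc at 5.45 ± 1.13 and Trh at 3.99 ± 2.11. Scg2 was above Vgf in 23 of 24 rats, Vgf above Pdyn in 24 of 24 and Pdyn above Cartpt in 22 of 24. Cartpt and Adcyap1 changed places, since Cartpt was the higher of the pair in only 5 of 24 rats (3 Control, 0 Low, 2 High). Adcyap1 was above Crh in 24 of 24 rats, whereas Crh exceeded Nts in 16, Nts exceeded Pnoc in 10 and Pnoc exceeded Trh in 19, so the order of the 4 lowest members was not fixed. By deposited FPKM, Scg2 and Vgf also ranked 1 and 2 in each group, with mean FPKM of 41.5 and 29.9 in Control.

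The groups were compared with limma on log2(scaled coverage + 1) in 1 fit of all 24 rats, with Benjamini-Hochberg adjustment over the 15644 genes. The question was whether expression differed between rats that inhaled the aerosol at the lower or higher concentration and Control rats. Against Control, 0 of 9 members passed an adjusted p of 0.05 in Low, where 6.11% of all genes did (1.23% higher, 4.88% lower), and 0 of 9 passed in High, where 0% did. At an unadjusted p under 0.05 the count was again 0 of 9 in both, while 2885 of all genes reached it in Low and 330 in High. The exact Wilcoxon rank-sum test also called 0 members in both. In the comparison of Low with High, 1 of 9 members passed (Adcyap1, higher in Low), beside 11.7% of all genes (5.3% higher, 6.39% lower), so the share of members past the threshold was near that of all genes. The median log2 difference over the 9 members was -0.040 in Low against Control, -0.13 in High against Control and -0.045 in Low against High. Over all genes tested the medians were 0.062, -0.031 and 0.091. Only the Low tables list no loci assembled from the reads. Each comparison with Low, including that of Adcyap1, therefore also compares 2 kinds of table, and exposure and kind of table cannot be told apart. The comparisons share groups (both exposures share the Control rats), and the values of the 2 groups compared overlapped in 27 of 27 member comparisons. The same share over all genes was not counted, so this number only describes the members.

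**Figure D2:**
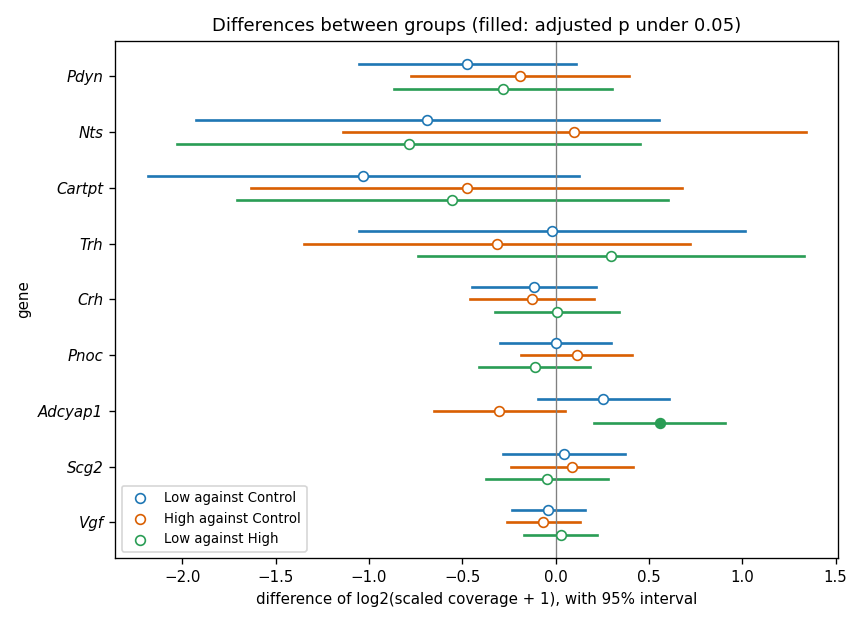
Log2 difference between groups with its 95% interval from limma for 9 members in 3 comparisons (24 rats, 8 per group; filled points have an adjusted p under 0.05). Only the Low against High difference of Adcyap1 (0.56, interval 0.21 to 0.91) is filled, and the intervals of Nts, Cartpt and Trh are the widest.

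Adcyap1 (ENSRNOG00000049882, chromosome 9, 121706979 to 121725716 on the minus strand) encodes PACAP, a peptide that raises cAMP in its target cells. Its scaled coverage in Control rats ranged from 16.4 (rat 55) to 23.3 (rat 52), with a median of 18.2. Low rats ranged from 18.3 (rat 61) to 28.5 (rat 59), with a median of 23.8, and High rats from 6.36 (rat 67) to 21.6 (rat 68), with a median of 17.0. All 8 Low rats lay above the High median and above the Control median, and 5 of 8 lay above every High rat. Conversely, 4 of 8 High rats lay below every Control rat. The means were 19.4 ± 3.10 in Control, 23.4 ± 3.81 in Low and 16.2 ± 5.14 in High (SD, n = 8 each).

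The Low mean of Adcyap1 was 1.44 times the High mean, a log2 difference of 0.56 (95% interval 0.21 to 0.91, limma, Benjamini-Hochberg adjusted p = 0.0333). Against Control, the difference was 0.26 in Low (-0.095 to 0.61, adjusted p = 0.443) and -0.30 in High (-0.65 to 0.048, adjusted p = 0.999). The call was lost without a filter on low values (adjusted p = 0.0869), without scaling (0.36, adjusted p = 0.352), with median-of-ratios scaling (0.47, adjusted p = 0.104), in a fit of the 2 groups alone (adjusted p = 0.0613), in the exact Wilcoxon test (adjusted p = 0.0951) and with libraries 56 to 62 as a covariate (0.61, adjusted p = 0.271). It was also lost when Low rat 58, 59, 62 or 64 or High rat 65, 66 or 71 was left out (differences 0.52 to 0.56, adjusted p = 0.0508 to 0.0740), and kept without rat 67 (0.39, adjusted p = 0.0412). Without High rats 66 and 67 together, the difference was 0.34 (adjusted p = 0.0865). In High against Control, the difference was -0.14 without rat 67 and -0.082 without both rats. The covariate of libraries 56 to 62 marks Control 56, Low 57 to 62 and no High rat. That fit therefore cannot well separate this run of libraries from the Low group.

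Other genes moved with Adcyap1. Over the 24 rats, after group means were subtracted, Adcyap1 had a Pearson r of 0.82 (Spearman 0.70) with the summed cortical excitatory neuron markers and of 0.57 (Spearman 0.43) with the summed immediate early genes, which mark recent neuronal activity. Without rats 66 and 67 these values were 0.63 and 0.29. Such values describe libraries that share depth and composition. The 14 immediate early genes summed to a median of 599 in Control rats (465 to 882), 998 in Low rats (575 to 1242) and 459 in High rats (229 to 787), and rat 67 was lowest in this sum, in the excitatory sum and in Adcyap1. Of these 14 genes, 10 were higher in Low than in High, where 5.3% of all genes were, among them Npas4 (log2 difference 1.66), Arc (1.64), Egr2 (1.42) and Junb (1.15), which are transcription factors apart from Arc, a protein of the synapse. Against Control, Junb (0.71) and Egr4 (0.56) were higher in Low, and 0 of 14 passed in High. Of the 9 excitatory neuron markers, 8 were positive in Low against High, with a median log2 difference of 0.35 beside 0.091 for all genes. Among them 1 was called higher in Low, where 5.3% of all genes were. The sum of these markers did not share this direction clearly. Its median was 1015 in Control rats, 997 in Low rats and 1112 in High rats, and its mean was 1081, 1020 and 986. The part of the immediate early genes or of these markers in the Adcyap1 difference was not tested. The tested genes most like Adcyap1 across the 24 rats were Fam131a (r = 0.88, rho = 0.81) and Kcnv1 (r = 0.88, rho = 0.86).

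**Figure D3:**
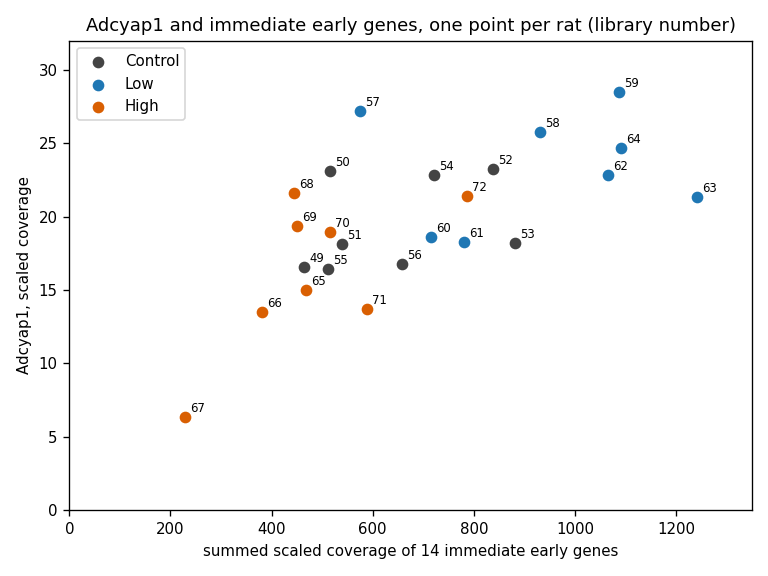
Scaled coverage of Adcyap1 (vertical, from 0) against the summed scaled coverage of 14 immediate early genes (horizontal), 1 point per rat with its library number, coloured by group. Rat 67 is lowest on both axes (6.36 and 229), and the Low rats reach the highest sums (1242 in rat 63) while overlapping the other groups on both axes.

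Pdyn (ENSRNOG00000026036, chromosome 3, 122194329 to 122206671, minus strand) encodes prodynorphin, the source of the dynorphins, which act on the kappa opioid receptor. Scaled coverage of Control rats ran from 16.2 to 44.7 (median 25.1), that of Low rats from 12.5 to 32.2 (median 19.4) and that of High rats from 11.0 to 53.6 (median 20.1). The 3 highest rats were High 67, High 65 (47.6) and Control 55 (44.7). Only 2 of 8 Low rats lay above the Control median, yet the difference of -0.47 (95% interval -1.06 to 0.11, limma adjusted p = 0.385) did not pass. In High against Control it was -0.19 (-0.77 to 0.39) and in Low against High -0.28 (-0.86 to 0.30). Leaving out rats, singly or in pairs, moved these to between -0.47 and -0.043 and to between -0.43 and -0.0063. The values -0.47 and -0.0063 were those without High rats 66 and 67.

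Pnoc (ENSRNOG00000014231, chromosome 15, 48805228 to 48833285, minus strand) encodes the precursor of nociceptin, the peptide of the Oprl1 receptor. Control rats lay between 4.28 and 6.95 (median 5.44), Low rats between 3.51 and 7.78 (median 5.48) and High rats between 3.99 and 8.60 (median 6.0). The log2 difference was 0.0013 in Low against Control (-0.30 to 0.30), 0.11 in High against Control (-0.19 to 0.41) and -0.11 in Low against High (-0.41 to 0.19).

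Nts (ENSRNOG00000004179, chromosome 7, 44111151 to 44121130, minus strand), the neurotensin precursor, and Cartpt (ENSRNOG00000017712, chromosome 2, 30125249 to 30127269, minus strand), the precursor of the CART peptides, had wide spreads. For Nts, Control rats ranged from 1.76 to 13.5 (median 3.60) and Low rats from 0.609 to 8.68 (median 2.19). High rats ranged from 0.311 (rat 68) to 33.2 (rat 67), a 107-fold range with a median of 5.29. For Cartpt, Control rats ranged from 11.5 to 37.7 (median 17.2), Low rats from 1.53 to 17.5 (median 13.9) and High rats from 1.94 (rat 68) to 68.4 (rat 67), with a median of 14.9. High rats 66 and 67 were far above the rest for both genes (25.0 and 33.2 for Nts, 55.0 and 68.4 for Cartpt), and the 6 other High rats lay at or below 10.6 for Nts and at or below 15.6 for Cartpt.

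The largest member difference in size belonged to Cartpt in Low against Control, at -1.03 (95% interval -2.18 to 0.12, limma adjusted p = 0.334). Low rats 57, 63 and 64 (4.75, 4.64 and 1.53) lay below every Control rat, and the other 5 (12.9 to 17.5) lay within the Control range. For Nts the difference was -0.69 (-1.93 to 0.55) in Low against Control and -0.79 (-2.03 to 0.45) in Low against High. High against Control gave 0.10 (-1.14 to 1.34) for Nts and -0.48 (-1.63 to 0.68) for Cartpt, and without High rats 66 and 67 these became -0.66 and -1.17. In Low against High the difference for Cartpt was -0.55, and the same exclusion gave -0.027 for Nts and 0.14 for Cartpt. None of these passed the adjusted threshold.

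Trh (ENSRNOG00000011824, chromosome 4, 124110716 to 124113242, minus strand) encodes the precursor of thyrotropin-releasing hormone. Control rats ranged from 0.608 to 6.63 (median 4.25), Low rats from 0.311 (rat 63) to 20.6 (rat 59, median 2.65) and High rats from 0.53 to 10.1 (median 1.95). The highest 4 rats were Low 59, Low 61 (13.2), High 66 (10.1) and High 67 (8.38), and the Low range was 66.4-fold. The difference was -0.019 (-1.05 to 1.01) in Low against Control, -0.31 (-1.35 to 0.72) in High against Control and 0.30 (-0.74 to 1.33) in Low against High. Without High rats 66 and 67 the last 2 were -0.81 and 0.79.

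Crh (ENSRNOG00000012703, chromosome 2, 104459999 to 104461863, minus strand), which encodes corticotropin-releasing hormone, gave 4.54 to 9.63 in the Control rats (median 7.37), 3.94 to 8.89 in the Low rats (median 6.23) and 4.74 to 9.14 in the High rats (median 5.77). Its differences were -0.12 (-0.45 to 0.21), -0.13 (-0.46 to 0.21) and 0.0072 (-0.32 to 0.34) in Low against Control, High against Control and Low against High. Each interval lay within 0.5 of 0 on the log2 scale.

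Scg2 (ENSRNOG00000015055, chromosome 9, 85237458 to 85243001, minus strand) encodes secretogranin II, the source of secretoneurin. Its scaled coverage was 89.2 to 169 in the Control rats (median 123), 95.5 to 167 in the Low rats (median 119) and 89.6 to 202 in the High rats (median 127), with High rats 66 (202) and 67 (186) at the top. Vgf (ENSRNOG00000001416, chromosome 12, 22677607 to 22680630, minus strand), a gene induced by nerve growth factor, had the smallest SD within groups of the members and lay at 73.0 to 106 in the Control rats (median 88.9), 74.7 to 95.7 in the Low rats (median 83.7) and 55.1 to 97.4 in the High rats (median 86.6). The Scg2 differences were 0.043 (-0.28 to 0.37), 0.088 (-0.24 to 0.41) and -0.045 (-0.37 to 0.28) in the order used for Crh. Those of Vgf were -0.040 (-0.24 to 0.16), -0.066 (-0.26 to 0.13) and 0.026 (-0.17 to 0.22).

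Rats of the same group differed more in several members than in most genes. The SD of log2(scaled coverage + 1) within groups was 1.26 for Nts, 1.17 for Cartpt, 1.06 for Trh and 0.60 for Pdyn, and 99.2%, 99.0%, 98.7% and 93.5% of the tested genes had a smaller one. The median over all 15644 genes was 0.22. Adcyap1 (0.36), Scg2 (0.33), Crh (0.33) and Pnoc (0.30) stood above 69.4% to 78.7% of genes, and Vgf (0.20) above 42.2%. Set only against genes whose mean level lay within 0.5 on the log2 scale, Nts, Cartpt, Trh and Pdyn stood above 98.9%, 98.7%, 97.5% and 97.2%, Scg2 above 88.9%, Adcyap1 above 85.5%, Crh above 69.6%, Vgf above 67.0% and Pnoc above 58.8%.

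**Figure D4:**
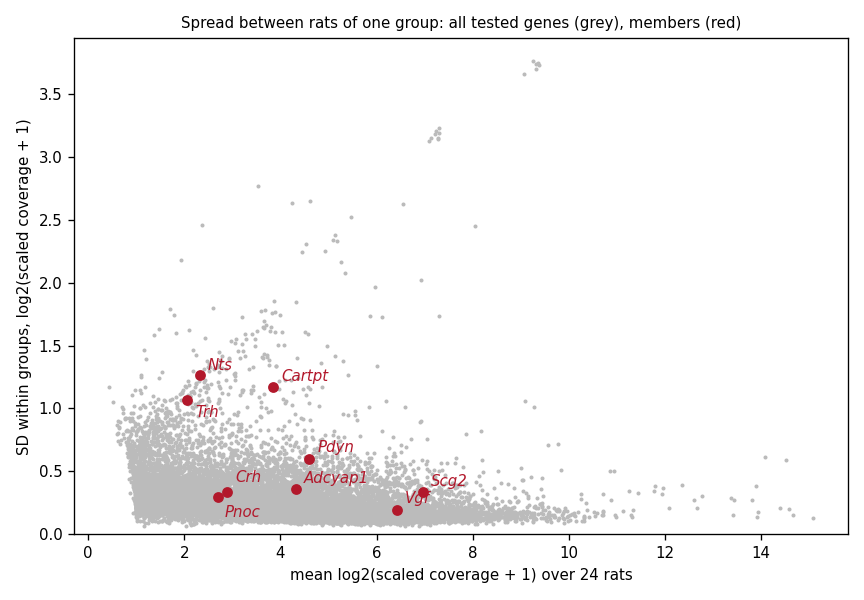
SD within groups of log2(scaled coverage + 1) against the mean of the same quantity over 24 rats, for all 15644 tested genes (grey) and 9 members (red). Nts, Cartpt and Trh lie above nearly all genes of their level, and Vgf, at 0.20, has the smallest SD of the members.

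Several members varied together from rat to rat. Of the 36 pairs of members, 17 passed a Benjamini-Hochberg adjusted p of 0.05 by Pearson correlation and 16 by both Pearson and Spearman correlation, in permutation tests that shuffled rats within groups on values with group means subtracted (n = 24, 100000 permutations, two-sided, smallest p possible 1e-05). The weakest of the 17 had an absolute r of 0.49, a size that 47.2% of the member pairs and 19.5% of all pairs of the 15644 tested genes reached. Pdyn and Nts gave r = 0.92 and rho = 0.91 (permutation p = 1e-05, adjusted 0.00018, the smallest the permutations allow), with r = 0.91 in Control, 0.94 in Low and 0.92 in High. Leaving out the 2 rats farthest from the median of Pdyn gave 0.92. Cartpt and Nts gave r = 0.88 and rho = 0.86 (permutation p = 1e-05), and Pdyn and Cartpt gave 0.83 and 0.85 (permutation p = 3e-05 for r). Without libraries 56 to 62, a run of neighbouring library numbers that earlier results of these data set apart, the 3 values of r were 0.91, 0.91 and 0.83.

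Trh and Scg2 belonged to the same set, at r = 0.74 and rho = 0.83 for Cartpt with Trh, 0.73 and 0.66 for Trh with Scg2 and 0.78 and 0.80 for Nts with Scg2. The last of these was uneven, with r = 0.82 in Control, 0.17 in Low and 0.95 in High. Adcyap1 ran the other way, with r = -0.70 (rho = -0.62) against Nts, -0.66 (-0.58) against Pdyn and -0.65 (-0.55) against Cartpt, and permutation p values of 0.00074, 0.0017 and 0.004 for r. Leaving out the 2 rats farthest from the median of Adcyap1 gave -0.55 against Nts and -0.45 against Cartpt, and the same with Pdyn gave -0.59. Adcyap1 and Crh gave r = 0.60 and rho = 0.65 (permutation p = 0.00078 for r, adjusted 0.0026). Vgf passed with no member by Pearson correlation, and by Spearman correlation only with Adcyap1 (rho = 0.59, adjusted permutation p = 0.0084).

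**Figure D5:**
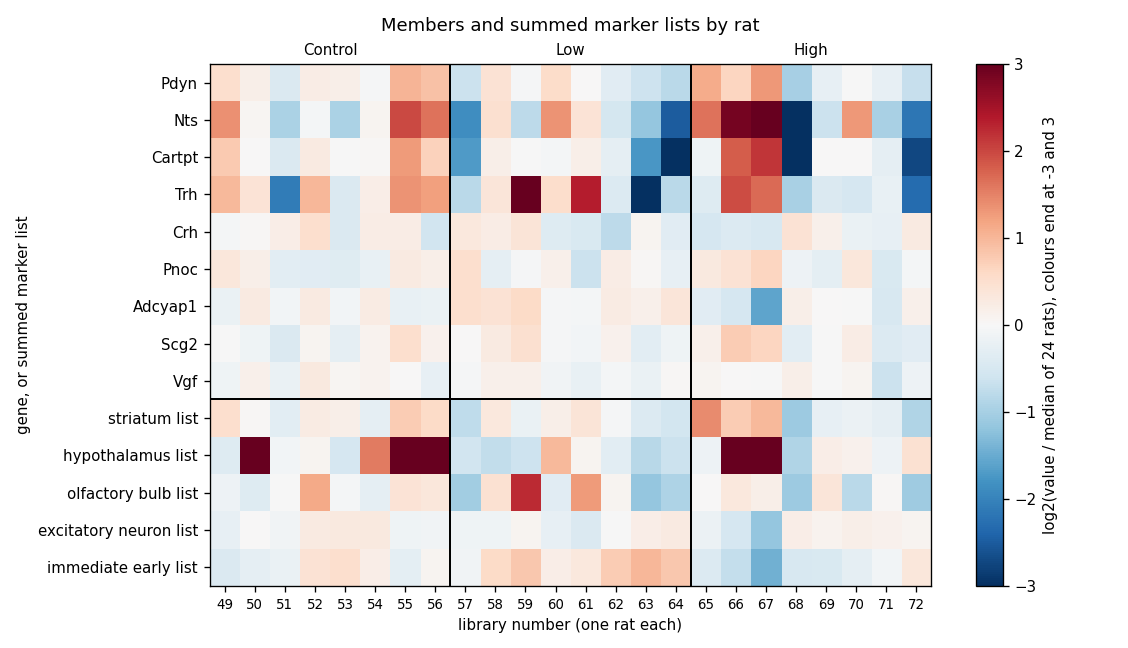
Log2 ratio of each value to its median over 24 rats (colour, ending at -3 and 3) for 9 members (upper rows) and the summed scaled coverage of 5 marker lists (lower rows), with 1 column per rat. Rat 68 is lowest in the striatum list (338), Pdyn and Nts, rat 65 is highest in that list (1924) without being high in Cartpt (14.3), and Trh is highest in rats 59 and 61, as is the olfactory bulb list (102 and 53.0).

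The members that ran together also moved with markers of neighbouring regions, given here as values over 24 rats with group means subtracted. All 10 striatum markers were found and tested, and their sum was 580 to 1227 over Control rats, 430 to 949 over Low rats and 338 to 1924 over High rats. Defining genes such as Drd1, Drd2 and Adora2a were above 0 in every rat and highest in High 65 (Drd2 and Adora2a) or Control 55 (Drd1). The Pearson r with this sum was 0.94 for Pdyn, 0.87 for Nts, 0.80 for Cartpt, 0.65 for Scg2 and 0.58 for Trh. For Pnoc it was 0.37, for Vgf 0.053, for Crh -0.57 and for Adcyap1 -0.65. Without rats 66 and 67 these values were, in the same order, 0.93, 0.84, 0.75, 0.55, 0.48, 0.23, 0.014, -0.52 and -0.61. Between groups, 0 of 10 striatum markers passed, with a median log2 difference of -0.53 in Low against Control, -0.29 in High against Control and -0.20 in Low against High. Over the 10 markers, 9 were negative in Low against Control, where Pdyn, Nts and Cartpt were also negative.

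The hypothalamus list held 9 genes, all found and 4 of them tested. Its sum was under 20 in 19 rats, and 270 in Control 50, 78.4 in Control 55, 81.5 in Control 56, 58.9 in High 66 and 180 in High 67, almost all of it Avp and Oxt, which encode vasopressin and oxytocin. In Control 50, Avp was at 152 and Oxt at 113, and Nts (3.58) and Cartpt (15.7) were near their Control medians there. Control 55 and Control 56 held the highest Nts values of Control (13.5 and 10.6), with Cartpt at 37.7 and 24.8. In High 67, Avp was at 52.6 and Oxt at 114, and Nts and Cartpt were at their highest. The r with the hypothalamus sum was 0.61 for Nts and 0.51 for Cartpt, and 0.42 and 0.28 without rats 66 and 67. For Scg2, Pdyn and Pnoc it was 0.54, 0.54 and 0.52, above that of Cartpt, and 0.34, 0.37 and 0.36 without rats 66 and 67. For the remaining members it lay between -0.48 (Adcyap1) and 0.46 (Trh). Sim1, Pmch, Kiss1 and Agrp stayed under 2 in all rats, and Sim1, Hcrt and Kiss1 were listed at 0 in several.

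All 5 olfactory bulb markers were found and 3 were tested. Their sum was 16.6 to 47.7 over Control rats, 9.74 to 102 over Low rats and 10.2 to 28.1 over High rats. Rat 59 stood highest for Cdhr1 (63.7), Th (11.9), Eomes (4.61) and Tbx21 (4.51), and rat 61 came second for Cdhr1 (33.3), Th (7.63), Eomes (2.44) and Tbx21 (1.31). The fifth marker, Doc2g, was also highest in rat 59 (17.2), but rat 61 (8.36) came after several other rats. Trh was highest in the same 2 rats, and its r with the sum was 0.80 over 24 rats, with 0.42 within Control, 0.95 within Low and 0.69 within High. Scg2 was also the highest of Low in rat 59 (167). The r with the olfactory bulb sum was 0.62 for Cartpt, 0.51 for Scg2 and 0.45 for Pdyn. For the remaining members it lay between -0.21 (Pnoc) and 0.35 (Nts). The part of striatal, hypothalamic or olfactory bulb RNA in the member values was not tested.

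The genes whose pattern was most like each member were sought among 12988 tested genes with a symbol, as a description of 24 rats in which both values share the library. Pdyn was closest to Gpr6 (r = 0.95, rho = 0.95) and Penk (0.95, 0.97), the proenkephalin gene, which is also on the striatum list. Nts was closest to Slc10a4 (0.96, 0.95) and Ecel1 (0.96, 0.90), Cartpt to Krt71 (0.93, 0.93) and Nnat (0.93, 0.93), and Trh to Calb2 (0.90, 0.92) and Sp8 (0.87, 0.83). Scg2 was closest to Caly (0.93, 0.88) and Mrap2 (0.92, 0.87), and Pnoc to Gnas (0.83, 0.83) and Hadhb (0.82, 0.80). Crh and Vgf had no close partner, with Tmem14a (0.63, 0.61) and Coro1a (0.62, 0.62) for Crh and Ppid (0.68, 0.66) and Cnr1 (0.67, 0.70) for Vgf.

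Genes that make, store and receive the peptides were counted from lists written from general knowledge. Of 14 tested enzymes and vesicle proteins of peptide processing, 0 passed against Control in Low or High, and 1 was higher in Low than in High. That gene was Pam, which amidates the end of many peptides (log2 difference 0.27, 132 ± 14.1 in Low and 109 ± 11.1 in High, SD, n = 8, limma adjusted p = 0.0248). In this comparison 13 of 14 were positive, with a median of 0.18 beside 0.091 for all genes, and 1 of 14 called is near the 5.3% of all genes called higher. Of 5 other granins and granin-like proteins, Scg3, a sorting protein of dense-core vesicles, was higher in Low than in High (0.25, 331 ± 22.1 against 279 ± 26.3, limma adjusted p = 0.00735), and 0 passed against Control. This 1 call stands beside 5.3% of all genes called higher. Against Control, 6.11% of all genes passed in Low and 0% in High.

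Among receptors, binding proteins and degrading enzymes of the member peptides, 20 of 22 were found and 18 tested. Of these 18, 1 passed, close to the 5.3% of all genes called higher. It was Trhde, the enzyme that degrades thyrotropin-releasing hormone, at 0.50 in Low against High (13.2 ± 2.39 against 9.27 ± 2.89, limma adjusted p = 0.0472). Adcyap1r1, a receptor of PACAP, had its lowest mean in Low (39.7 ± 15.8, against 56.6 ± 12.4 in Control and 57.1 ± 12.7 in High), opposite to the order of its ligand, but -0.60 in Low against High did not pass (limma adjusted p = 0.0666). Vipr2, another receptor of PACAP on the list, had its highest mean in Low (2.76 ± 0.489, against 1.92 ± 0.506 in Control and 2.08 ± 0.415 in High) and did not pass either. The dynorphin receptor Oprk1 gave -0.61 in Low against Control (adjusted p = 0.186).

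Of 38 other neuropeptide precursors, 37 were found, 22 were tested and 0 passed in any of the 3 comparisons. The largest differences in Low against Control were -2.37 for Oxt and -2.11 for Avp (limma adjusted p = 0.223 and 0.160). Their Control values ran from 0 to 113 and from 0.258 to 152, set by the same few rats named above.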

How the data were processed

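Members and gene lists were chosen with earlier results of these data known. Per the labels, the authors made stranded mRNA libraries and used FastQC, Trimmomatic, TopHat2 and StringTie, with versions not given in the sources used here. The labels name the build mRatBN7.2, but the tables hold positions and sequence names outside it, so they are printed as the tables give them. The authors deposited 1 StringTie table per rat with coverage (signal, mean read depth per base), FPKM and a TPM column, used here as a score because reference genes and assembled loci are scaled differently in it. Tables of Control and High also list loci assembled from the reads. Over a member they mostly held its coverage a second time (median ratio 1), and tables of Low held none. Where a locus was present, the ratio ran from 0.53 (lowest, Scg2) to 2.25 (highest, Nts). Trh had such a locus in 14 of 16 libraries. The table of Control 56 was unlike the others, with 159573 assembled loci that held 55.1% of its coverage. The other Control and High tables listed 46334 to 66427 such loci, with 38.8% to 42.6% of coverage.

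Coverage of reference genes was scaled to a sum of 1000000 per library, and genes with a mean of at least 1 were tested with limma 3.58.1 (trend, robust, two-sided) in R 4.3.3 on log2(value + 1), a scale that understates changes of low genes. It was tested on simulated data. Entries of the same gene identifier were summed. Groups came from the labels, and the spread behind each p-value is that between the rats of a group. Named genes of a list are those past the threshold in any comparison (at most 4), otherwise the 2 largest in Low against Control. Egr4, Adcyap1r1, Vipr2, Oprk1 and the single region markers named beside a member were chosen after their values were seen. Likeness was Pearson's r, with the 2 closest genes named. Tables used Python 3.11.15, pandas 2.3.3, numpy 2.4.6 and scipy 1.17.1, and figures matplotlib 3.10.9. Alternatives were another pseudocount (0.1), filter (none, or a mean of 5), scaling, column, test, covariate and set of rats. Values of 1 marker gene are not reported here, while the sums of its list include it.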

Additional observations from a re-analysis of the deposited data

Results flagged for a closer look

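Vgf in High rat 71 was at 55.1, while the 7 other High rats lay between 78.2 and 97.4, a gap larger than the 95% critical value of Dixon's test for 8 samples. The sums of marker lists held 5 further such values. They were the hypothalamus list in Control 50 (270, the others 4.45 to 81.5), Low 60 (12.3, the others 3.53 to 6.62) and High 67 (180, the others 3.37 to 58.9), and the olfactory bulb list in Control 52 (47.7, the others 16.6 to 28.8) and Low 59 (102, the others 9.74 to 53.0). Over 45 sets of 8 values, 6 were marked. A rate of 1 in 20 would give 2.25, but it holds for normally distributed values. These values were not log-transformed and the sets share rats, so the number expected by chance is not known. Adcyap1 differed between the exposures, at a log2 difference of 0.56 for Low against High by the test of that difference itself (limma, adjusted p = 0.0333), with the settings that lose it given with the result.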

How the results depend on the processing

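No paired analysis was possible because the library numbers are unique and the groups share none. Under all settings run, 0 of 9 members passed in High against Control. Over all genes the calls in that comparison were also 0, apart from the fit without Control 49 and Low 57 together. That fit called 7 of 15644 genes higher and 383 lower, so the count of 0 members sets them little apart. In Low against Control 0 members passed except with the FPKM column, which called 4. With that column, 11948 of 13816 genes were called higher and 445 lower. The median log2 difference of all genes was 0.53 there (0.062 with scaled coverage). In Low against High the count of 1 became 4 with FPKM, and 0 without a filter, without scaling, with median-of-ratios scaling, with only the 2 groups compared, with the exact Wilcoxon test, with libraries 56 to 62 as a covariate and, chosen after seeing the data, without High 66 and 67 together. The Adcyap1 difference was 0.56 (adjusted p = 0.0869), 0.36, 0.47, 0.56 (adjusted p = 0.0613), 0.47, 0.61 and 0.34 in these settings, and the causes were not tested. It stayed past the threshold with pseudocount 0.1, a minimum mean of 5, scaling without mitochondrial genes, FPKM, the TPM column, and without Control 49 and Low 57 together. In Low against High the FPKM column called 11909 of 13816 genes higher and 501 lower, so a call with that column sets no gene apart. The TPM column called 2997 of 15587 genes higher and 930 lower. The fit without Control 49 and Low 57 called 3342 of 15644 genes higher and 1165 lower. Both called more genes than the reported fit, so a call kept there says less about Adcyap1. Over all genes, higher and lower calls in Low against High numbered 829 and 999. They numbered 373 and 1283 by median-of-ratios size factors, 72 and 1061 on unscaled coverage, and 1528 and 1093 when mitochondrial genes were left out of the sum.

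Some differences that did not pass in the reported fit turned their sign. Under FPKM, 2 of these passed with the opposite sign (Vgf in Low against Control, adjusted p = 6.5e-05, and Scg2 in Low against High, adjusted p = 0.0134), while the other turned values listed did not pass. In Low against Control these were, with FPKM, Pdyn 0.019, Crh 0.28, Trh 0.33 and Vgf 0.46. With the TPM column they were Trh 0.066 and Vgf 0.057, with the Wilcoxon test Scg2 -0.057, and with the covariate Crh 0.0069, Pnoc -0.081, Scg2 -0.13 and Vgf 0.0054. With median-of-ratios scaling they were Pnoc -0.050 and Scg2 -0.015, without scaling Pnoc -0.029, with pseudocount 0.1 Pnoc -3.5e-06, and without Control 49 and Low 57 Pnoc -0.019 and Trh 0.16. In High against Control they were Crh 0.035 and Vgf 0.12 without scaling, Nts -0.11 with pseudocount 0.1, and Nts -0.66, Pnoc -0.016 and Scg2 -0.11 without High 66 and 67. In Low against High they were Pdyn 0.14, Pnoc 0.23 and Scg2 0.41 with FPKM, Scg2 0.0034 with TPM, and Vgf -0.048 with the Wilcoxon test. The covariate gave Trh -0.73, median-of-ratios scaling Crh -0.076 and Vgf -0.069, and no scaling Crh -0.19 and Vgf -0.19. Without Control 49 and Low 57, Crh was -0.048, and without High 66 and 67, Cartpt was 0.14, Crh -0.085, Pnoc 0.017 and Scg2 0.16.

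Leaving out rats, singly or in the 2 pairs named, gave ranges that cross 0 for Trh (-0.35 to 0.23), Pnoc (-0.065 to 0.073), Scg2 (-0.019 to 0.11) and Vgf (-0.075 to 0.00024) in Low against Control. The same held for Nts (-0.66 to 0.42), Pnoc (-0.016 to 0.18), Scg2 (-0.11 to 0.16) and Vgf (-0.10 to 0.018) in High against Control. In Low against High it held for Cartpt (-0.89 to 0.14), Crh (-0.085 to 0.087), Trh (-0.031 to 0.79), Pnoc (-0.18 to 0.017), Scg2 (-0.12 to 0.16) and Vgf (-0.057 to 0.059). The Adcyap1 difference in Low against High stayed between 0.34 and 0.63, with 0 to 1 members called. Depth could not be checked, since the tables hold no counts.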
